A study of Homo sapiens with 14 samples.

Results

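In CAOV3 ovarian carcinoma cells exposed to STM3675, 919 adenosines kept much of their N6-methyladenosine (m6A) while most highly methylated sites lost the greater part. These retained sites were chosen by their values: a DRACH sequence, at least 20 reads in each of the 4 CAOV3 libraries, an m6A level of at least 80% in both DMSO libraries and at least 35% in both STM3675 libraries. They were 919 of 12633 DRACH sites (7.27%) that passed the same depth and DMSO conditions, and they lay in 650 of 4880 genes with such a site. A further 759 sites reached 35% in 1 STM3675 library only and were counted among the 11714 other sites. Because the rule used the CAOV3 levels, those levels are described below with no test.

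The study measured m6A in polyadenylated RNA with GLORI, in which glyoxal and nitrite convert unmethylated adenosine so that it is read as G, while methylated adenosine is still read as A. A site's level is given as the share of A among its A and G reads, in percent. CAOV3 cells received the solvent DMSO or 1 uM STM3675 for 24 h, with 2 libraries each. DMSO for 24 h was also given to A549 (lung carcinoma), OE21 (oesophageal) and the ovarian lines COV644, EFO21 and SKOV3, with 2 libraries each, which makes 14 libraries. The series concerns METTL3 inhibition, and no other treated line, dose or time is in these data. Replicates are not said to come from separate cultures, so errors measure the spread between libraries, which may be technical. Each line is a single tumour-derived line, and in bulk RNA fewer cells with a transcript and less transcript per cell cannot be told apart.

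METTL3 with METTL14 forms the enzyme that methylates messenger RNA at DRACH, where D is any base but C, R is a purine and H is any base but G. The mark is placed in the nucleus, mostly in long exons and near the stop codon, and is kept low close to exon junctions by the exon junction complex. Readers such as the YTHDF proteins bind methylated transcripts in the cytoplasm, and the mark is known for shortening the life of messages such as those of immediate early genes. After the enzyme is inhibited, transcripts made before the inhibition still carry their marks until they decay.

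The CAOV3 libraries held 18729571 to 28663588 reads at listed sites and the other lines 14047302 to 25492907. EPCAM, KRT7, KRT8, KRT18, CD24, CLDN3, CLDN4, MSLN and FOLR1, markers of epithelial and ovarian tumour cells, were covered in all 4 CAOV3 libraries, with KRT7 at a median of 766 to 1397 reads per site. PAX8 was covered thinly, at a median of 11.5 to 16 reads, and WT1 was at 0 in all 4 libraries. MUC16, and PTPRC and DCN as markers of leukocytes and fibroblasts, had no listed site, and the endothelial PECAM1 had medians of 0 to 1. CD14 and COL1A1 were read at medians of 16 to 55. Non-DRACH adenosines read as A, a measure of incomplete conversion, had median levels of 10.3% and 10.7% with DMSO and 9.09% in both STM3675 libraries.

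The sequences of retained sites were the common members of DRACH, with fewer of the weaker ones. GGACT held 425 retained sites of 4317 (9.84%), GGACA 167 of 1893 (8.82%) and AGACT 151 of 1840 (8.21%). GAACT held 95 of 1908 (4.98%), GGACC 23 of 608 (3.78%), TGACT 35 of 1043 (3.36%) and AAACT 6 of 371 (1.62%). Sites that begin with GG were 66.9% of retained sites and 53.0% of the others, and a C at the fifth base went with a share of 3.87% against 7.47% for T (12.2% against 14.9% among sites averaging 95% or more with DMSO). The longer sequence around a site could be read only where it falls in a RefSeq promoter window (GRCh38.p14), which held 51 of the 12633 sites, and at all 51 the 5 bases of the deposited table matched. Of the 51 sites 6 were retained, and for 4 of these the window is that of a gene other than the one listed for the site, while 1 has no gene listed. All 6 are shown with 10 bases on each side, 5′ to 3′ on the strand of the site, with the motif in capitals and the level in the 2 STM3675 libraries after each name.
ALG11, chr13:52024453-52024477, plus strand, 58.5% and 65.9%: ttttatttatGGACTtgttggttct
SNX33, chr15:75648906-75648930, plus strand, 44.9% and 56.3%: tctgggccatGGACAttgctttgaa
TLNRD1, chr15:81001918-81001942, plus strand, 41.2% and 50.0%: ccagcagaagGGACTttcctggcag
TSC22D1, chr13:44575662-44575686, minus strand, 35.9% and 48.6%: gtatagcagaGGACActgagagcta
ERP29, chr12:112022228-112022252, plus strand, 40.0% and 42.5%: tccgggatggGGACTttgagaaccc
no gene listed, chr15:50353986-50354010, minus strand, 35.3% and 40.4%: aaacctgattGGACTgtggcgagcg
The 3 sites with the lowest STM3675 levels among those in the same windows at 95% or more with DMSO are shown for contrast.
YEATS2, chr3:183810525-183810549, plus strand, 11.8% and 10.7%: ttccttttctGGACTtcctcacaaa
CCDC103, chr17:44903299-44903323, plus strand, 13.0% and 16.7%: tttcccctagAGACTcagttcttgt
H3C6, chr6:26225140-26225164, plus strand, 12.8% and 17.2%: ctttgcagatGAACTatggcgcgta
The 6 retained sites all carried GGACT or GGACA, but the same GGACT stood at the low YEATS2 site, so the 5 bases alone did not set the 2 kinds apart.

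Retained sites started from nearly complete methylation. In the 2 DMSO libraries their median levels were 98.4% and 98.6%, and in the 2 STM3675 libraries 46.7% and 47.8%, with a range of 35% to 100% in both. The other sites had STM3675 medians of 15.4% and 15.5% and reached at most 63.0% and 65.5%. Mean levels over sites with STM3675 were 50.4% ± 0.931 (SD, n = 2) for retained sites and 17.1% ± 0.181 for the others. The median ratio of the STM3675 to the DMSO level was 0.483 at retained sites and 0.168 at the others. Most retained sites had therefore lost about as much as they kept: 160 averaged 35 to 40% with STM3675, 392 averaged 40 to 50%, 191 averaged 50 to 60% and 104 averaged 60 to 70%. Only 49 averaged 70 to 80%, 15 averaged 80 to 90% and 8 were above 90%.

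**Figure D1:**
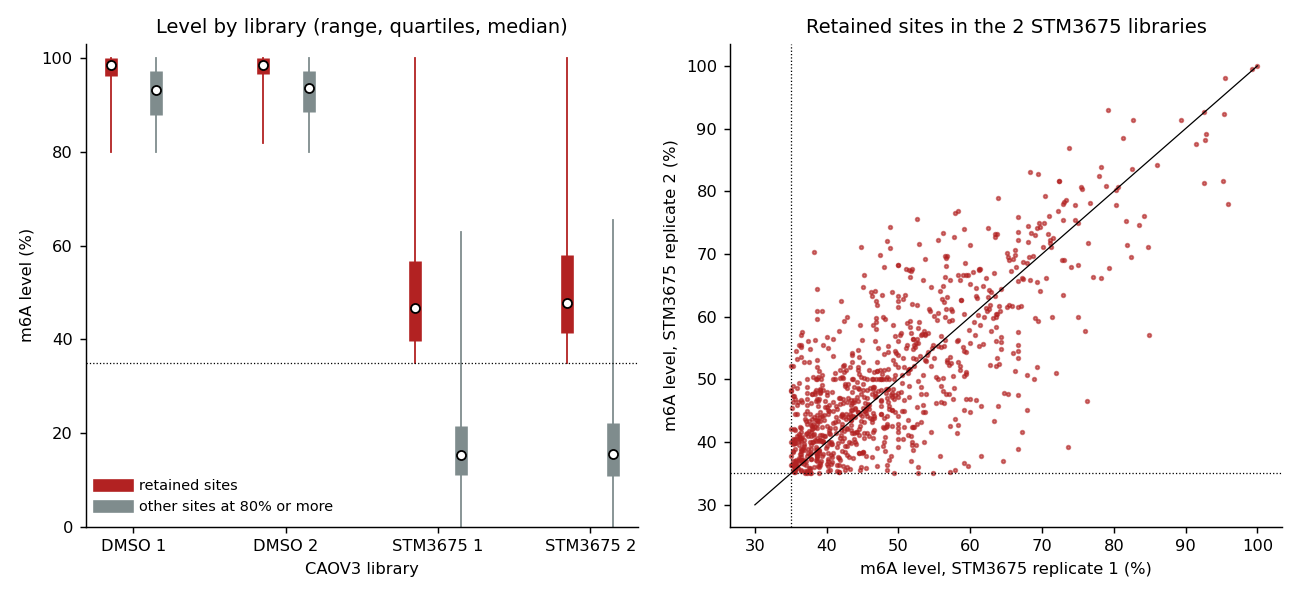
Left, m6A level (%) in each CAOV3 library for the 919 retained sites and the 11714 other sites at 80% or more, with the range as a line, the quartiles as a bar and the median as a white point; right, level of each retained site in STM3675 replicate 1 against replicate 2, with the diagonal. Dotted lines mark 35%, the value used to choose the sites, and most retained sites lie between 35% and 60%.

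The 2 STM3675 libraries differed by a median of 4.56 points at retained sites and by no more than 10 points at 728 of 919. Replicate 2 was higher at 545 sites and replicate 1 at 369. When sites were picked on replicate 1 alone, 1246 had 35% or more, and in replicate 2 these had a median of 43.3%, with 919 of them (73.8%) again at 35% or more. Sites not picked had a median of 15.3% there, with 432 (3.79%) at 35% or more. Picked on replicate 2, 1351 sites had a median of 40.1% in replicate 1 and 68.0% were again at 35% or more, against 2.90% of the rest. Nearest the threshold inside were SFMBT2 (35% and 52.1%) and 2 sites of SON (37.8% and 35%; 35% and 48.1%). Just outside were CCDC71L, at 36.0% and 34.9677%, with CDC42BPB and NFATC2IP, both at 34.9% in replicate 1 and at 35.1% and 35.3% in replicate 2. Read depth at retained sites had medians of 60 and 59 with DMSO and 94 and 76 with STM3675, against 68, 70, 114 and 93 at the others.

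The share retained rose with the level before treatment. Of sites averaging 80 to 85% with DMSO 0.331% were retained, of those at 85 to 90% 0.771%, of those at 90 to 95% 2.81%, and of those at 99% or more 26.3% (315 of 1199). In both DMSO libraries 192 retained sites (20.9%) were read as A in every read, against 526 of the others (4.49%). Sites averaging 95% or more made up 86.4% of retained sites and 37.9% of the others, and 15.2% of such sites were retained (794 of 5234). The shares by position are therefore also given among sites at 95% or more, within which the share retained still rose with the DMSO level. By sequence, 17.6% of such sites that begin with GG were retained, 16.5% with AG, 9.78% with GA, 8.56% with TG and 6.09% with AA. Among all sites the shares were 9.02%, 7.51%, 4.68%, 3.28% and 2.07%, in the same order.

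Retained sites lay deeper inside longer exons. Their exons had a median length of 2886 nt, against 2208 nt for the other sites, and they stood a median of 706 nt from the exon start, against 485 nt. Within 150 nt of an exon start 18 of 999 sites (1.80%) were retained, and the share was 5.29% at 150 to 400 nt, 7.72% at 400 to 700 nt, 9.40% at 700 to 1000 nt and 11.5% at 1000 to 2000 nt. Beyond 2000 nt it was lower again, at 7.63%. Exons up to 500 nt had 3.03% of their sites retained and exons over 4000 nt 11.1%. Among sites at 95% or more the shares by distance ran from 3.51% next to the exon start to 22.3% at 1000 to 2000 nt and 16.6% beyond, and those by exon length from 6.59% to 22.5%. In both sets of sites the share was lowest next to the exon start and highest at 1000 to 2000 nt.

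**Figure D2:**
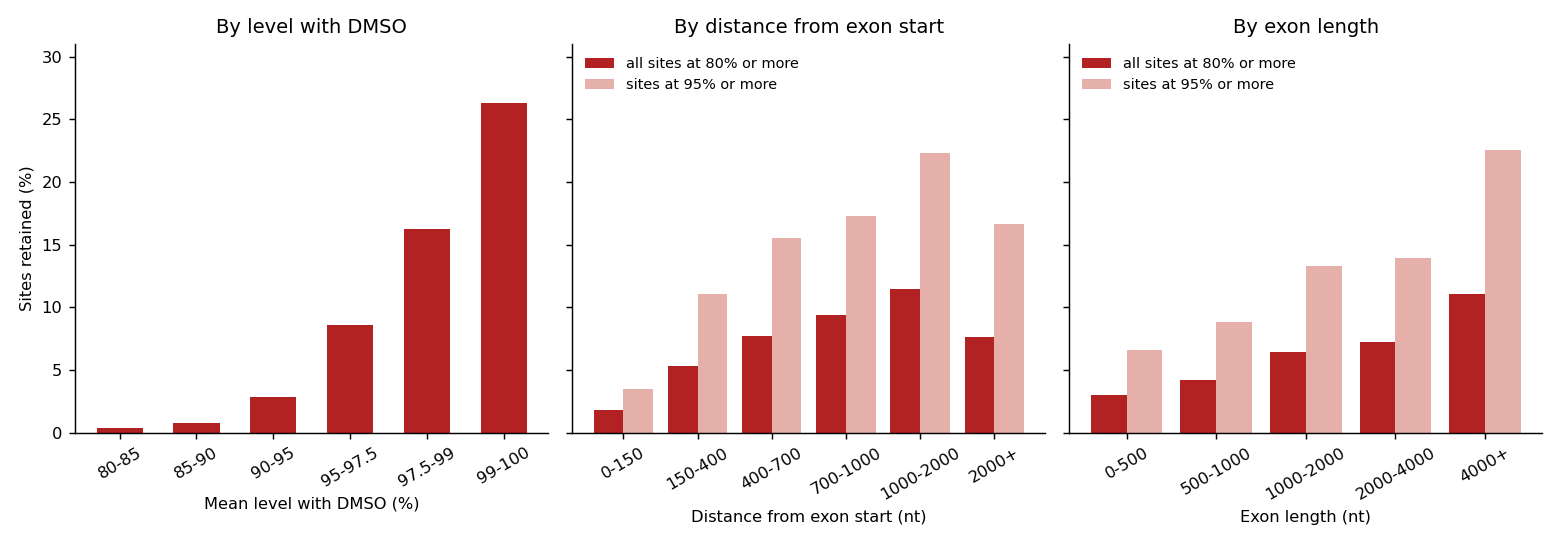
Percentage of DRACH sites retained after STM3675 in CAOV3, by mean level with DMSO, by distance from the exon start and by exon length; dark bars hold all sites at 80% or more and pale bars those averaging 95% or more. Among all sites the share ran from 0.331% to 26.3% over the DMSO classes and from 1.80% to 11.5% over the distance classes, with a fall to 7.63% in the last class.

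By exon class, 80 of 618 sites in single-exon genes (12.9%) and 30 of 250 sites in first exons (12%) were retained. Last exons, which held most retained sites, had 603 of 8853 (6.81%), internal exons 152 of 2192 (6.93%), and sites with no exon listed 54 of 720 (7.50%). Among sites at 95% or more the shares were 24.7% in first exons, 21.8% in single-exon genes, 16.8% with no exon listed, 14.4% in last exons and 14.2% in internal exons. No site at 80% or more lay within 10 nt of a first exon's start, where a differently made methyl mark is common. Over exons of every class, the retained site closest to the start of its listed exon was 38 nt from it. Retained sites had close company: 64.1% had another site at 80% or more within 200 nt, against 51% of the others, and 11.1% against 6.76% had 3 or more.

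The highest levels after STM3675 were read among retained sites with at least 50 reads in each library, taking 1 site per listed gene. Some of these genes had other retained sites, such as SLC33A1 (3 of 4 sites at 80% or more) and SEPHS2 (2 of 6). Others had no more, such as PANX1 (1 of 4). A site at chr3:64101579 with no gene listed, inside the RefSeq intervals of PRICKLE2 and PRICKLE2-AS1, read 98.6% and 99.3% with DMSO and 99.3% and 99.6% with STM3675, over 493 to 1693 reads, and did not fall at all. Its motif was AAACC, which no other retained site had and which stood at only 2 of the sites at 80% or more. CCNJL, which encodes a cyclin J-like protein, had 98.7% and 99.2% with DMSO and 92.8% and 89.1% with STM3675. PANX1, a membrane channel, had 100% in both DMSO libraries and 89.4% and 91.4% with STM3675. SEPHS2, an enzyme of selenium metabolism, was the deepest of these, with 1213 to 1646 reads and levels of 99.5%, 99.4%, 75.6% and 80.4%. In PANX1, CCNJL and SEPHS2 the lower DMSO library stood above the higher STM3675 library, so these sites had fallen, by less than most.

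SERPING1, which encodes the C1 inhibitor of complement, was unusual in starting lower, at 86.0% and 86.6%, and read 80.6% in both STM3675 libraries. SLC33A1, an acetyl-CoA transporter of the endoplasmic reticulum, had 97.8% and 97.9% with DMSO and 78.9% and 80.8% with STM3675. ORAI2, a calcium channel subunit, read 75.5% and 80.7% with STM3675. RUNDC1 read 92.6% and 81.3%, PCNX1 80.4% and 77.8%, FAM83H 78.2% and 83.9%, and a site of no listed gene inside CTBP1-DT (chr4:1251727) 81.2% and 88.6%. Among sites with fewer reads, GPR75 (96.8% ± 1.88), KLHL9 (93.9% ± 2.11) and PIGM (92.7% ± 0.0363) stood as high. STM3675 levels at or above the DMSO level were seen at 3 retained sites, and all 3 had no gene listed. Of the 54 retained sites with no gene listed, 52 lay inside a RefSeq gene interval.

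Sites of 1 gene shared retention only in part. Of the 650 genes with a retained site, 494 had 1, 114 had 2 and 42 had 3 or more. In 578 of them at least 2 sites were at 80% or more with DMSO, and there 422 genes had 1 retained and 156 had 2 or more, so a retained site most often stood among sites that were not retained. In 12 genes all of 2 or more sites were retained: AHDC1, COL6A2, DMBT1, ERI2, ERP29, GPR173, KBTBD6, LGALS3BP, OPA3, P3H3, RNASE1 and SHPK. Seen from a retained site, 628 of 3766 other sites of the same gene were retained (16.7%), against 9.63% seen from a site that was not. In genes with 3 or more sites at 80% or more (1638 genes), STM3675 levels had an SD of 12.3 points over all sites and of 11.4 points within genes, which left 86.4% of the variance between sites of the same gene.

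Within an exon, partners of a retained site were the more often retained ones up to about 1000 nt. For pairs of sites 51 to 200 nt apart in the same exon, 20.6% of the partners of a retained site were retained, against 8.77% of the partners of a site not retained. Between 200 and 500 nt the shares were 19.7% and 10.3%, and from there to 1000 nt 19.9% and 11.6%. Beyond 1000 nt they were 9.82% and 10.5%, and between different exons of a gene 9.72% and 7.70%. At 1 to 50 nt, where both sites are often in the same read, the shares were 15% and 8.61%. Where both sites averaged 95% or more the shares were 33.1% and 21.6% between 500 and 1000 nt and 19.8% and 20.4% beyond. The distance pattern was thus present among nearly complete sites too, although the share retained still rose with the DMSO level among them. Pairs share genes, reads and depth, and genes with many retained sites give many pairs, so these shares carry no test. Sites close together also lie at similar distances from the exon start, with which the share retained changed. The pair shares were not adjusted for that.

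**Figure D3:**
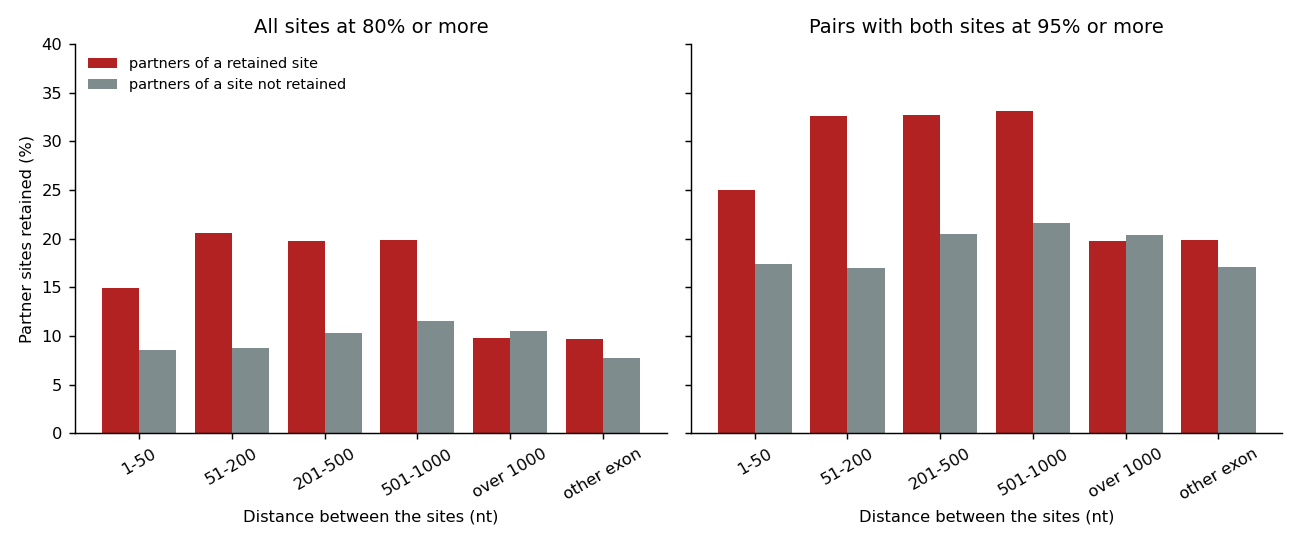
Percentage of partner sites in the same gene that were retained, for partners of a retained site and of a site not retained, by the distance between the sites or in different exons; left all pairs of sites at 80% or more, right pairs with both sites averaging 95% or more. The gap between the bars is widest at 51 to 200 nt on the left (20.6% and 8.77%) and beyond 1000 nt the bars stand at 9.82% and 10.5%.

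CHST15, a sulfotransferase that modifies chondroitin sulfate, had the most retained sites, 8 of its 15 sites at 80% or more, 6 in the last exon and 2 in an internal exon. Its highest, chr10:124009679, had 98.0% and 95.4% with DMSO and 52.4% and 55.2% with STM3675. The next, 936 nt into the last exon, had 50.6% and 50.7%, and the lowest of the 8 averaged 37.4% ± 2.04. Between them stood sites such as those at 600 nt and 1834 nt, which averaged 16.8% and 16.1%. CHST15 thus held retained and lost sites side by side, and its highest site averaged 53.8% ± 2.04.

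FEM1B, the substrate receptor of a ubiquitin ligase, had 5 retained of 12 sites, all 5 between 1064 and 1683 nt into its last exon. The site at 1683 nt (chr15:68291290) had 98.9% and 97.2% with DMSO and 62.4% and 61.0% with STM3675, and the site at 1064 nt 97.3%, 99.4%, 58.3% and 56.3%. The 6 sites between 155 and 1019 nt averaged 17.8% to 32.1% with STM3675, although 4 of them started at 98.3% to 98.9% with DMSO. In FEM1B the retained sites were thus grouped in 1 stretch of the exon, with 1 site at 1639 nt inside it at 27.0%.

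HPS6, a subunit of a complex that forms lysosome-related organelles, is a single-exon gene with 5 retained of 13 sites. The site at 1611 nt (chr10:102066960) was at 100% in both DMSO libraries and at 70.1% and 71.2% with STM3675, while the other 4 averaged 38.6% to 41.8%. TAF5L, a subunit of a histone acetyltransferase complex, had 5 of 12, among them chr1:229594778 with 98.4% and 100% with DMSO and 76.7% and 78.2% with STM3675. The other 4 of TAF5L averaged 37.1% to 48.2%, and a neighbour at 299 nt of its last exon, beside that site at 316 nt, averaged 16.5%.

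SLC5A3, the sodium and myo-inositol cotransporter, had 5 retained of 11 sites and some of the widest contrasts. At 1904, 2311 and 2438 nt into its last exon the levels averaged 71.1% ± 0.0533, 87.0% ± 6.15 and 80.2% ± 3.21 with STM3675. At 2406 nt, between the latter sites, it averaged 11.2% ± 3.4 and had the same AGACT as the site at 2311 nt. Read depth with STM3675 was 23 in both libraries at the 2311 nt site and 34 and 22 at the 2406 nt site. Both levels thus rest on few reads. The remaining genes with most retained sites were EVC (4 of 7), TNFAIP8 (4 of 8), DOCK5 and FBXO42 (both 4 of 9), ZNF148 (4 of 10), AP5B1 (4 of 11) and SOCS6 (4 of 14).

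**Figure D4:**
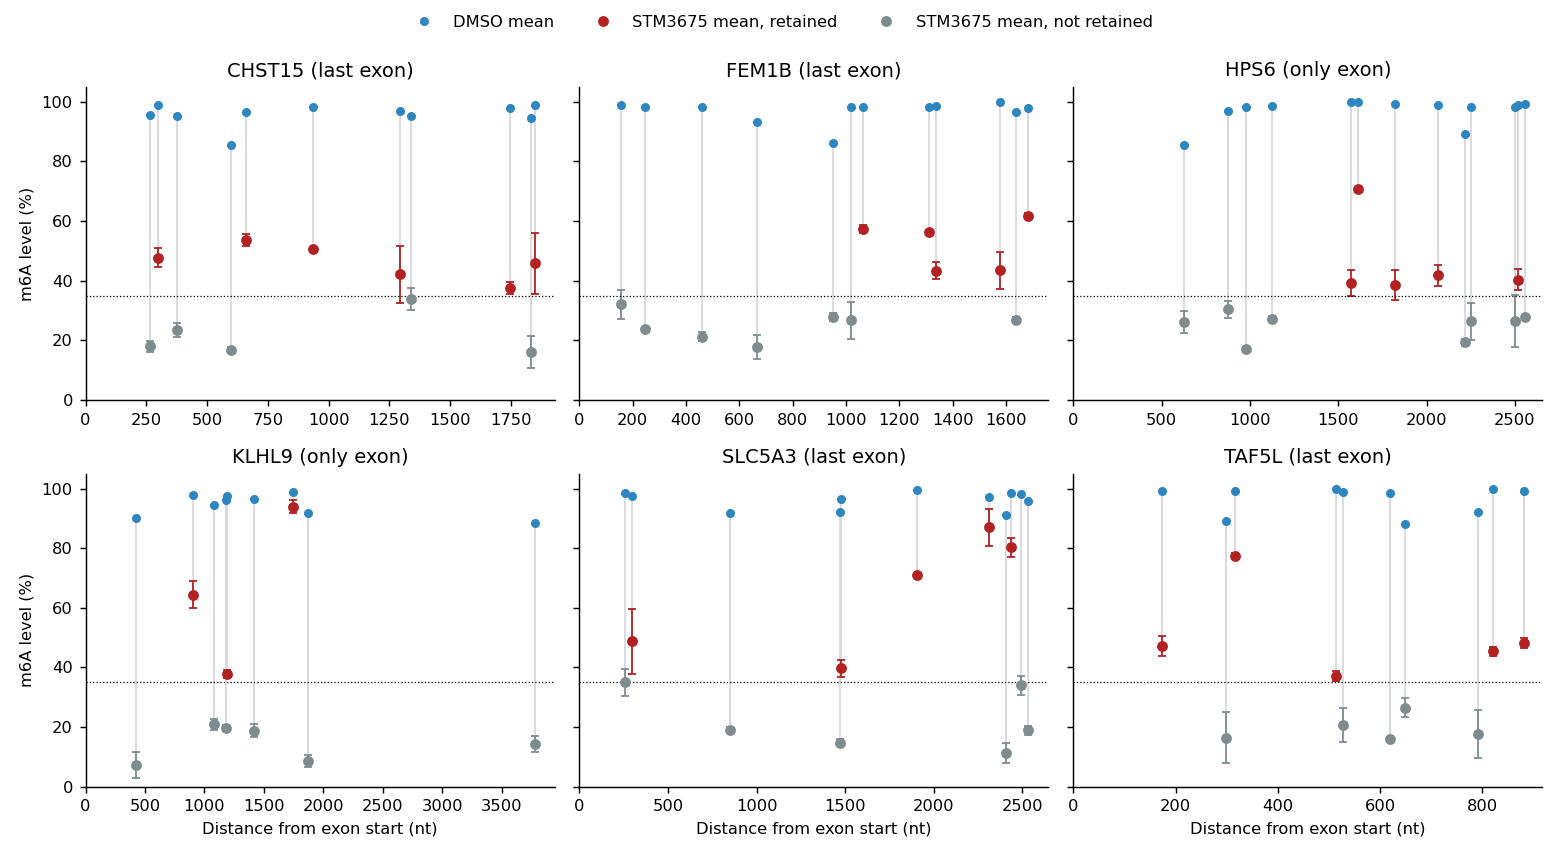
m6A level (%) of the sites at 80% or more in 6 genes against distance from the start of the last or only exon (nt), with DMSO means in blue, STM3675 means in red for retained and grey for other sites, error bars as SD of 2 libraries and the dotted line at 35%. Retained and lost sites are interspersed along CHST15, KLHL9, SLC5A3 and TAF5L. In HPS6 the retained sites from 1572 to 2066 nt have no lost site between them. The 5 retained sites of FEM1B lie between 1064 and 1683 nt.

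The gap between sites of 1 gene was widest in KLHL9, PIGM, YTHDF1 and RUNDC1. KLHL9, an adaptor of a CUL3 ubiquitin ligase, is a single-exon gene whose 9 sites averaged 7.23% to 93.9% with STM3675. Its highest site had 95.4% and 92.4%, and the site at 1868 nt, the next along the exon, averaged 8.57%. PIGM, a mannosyltransferase of glycosylphosphatidylinositol anchor synthesis, kept 92.6% and 92.7% at 1 site, while the other 6 averaged 10.3% to 25.6%. In RUNDC1 the retained site at 346 nt of the last exon averaged 87.0% ± 7.99, and the site at 330 nt, a GGACC, averaged 13.2% ± 5.47. Reads that cover both RUNDC1 sites are possible.

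YTHDF1, a cytoplasmic m6A reader, had a site at 95.2% and 81.6% with STM3675 (100% in both DMSO libraries) and another at 45.5% and 37.9%, while its remaining 4 sites averaged 8.18% to 23.7%. YTHDF3, of the same reader family, had 3 retained sites averaging 42.0% to 53.4%, and RBM15B, which recruits the methyltransferase, 1 at 41.8% and 47.1%. Among m6A writers, readers and erasers 6 of 47 sites (12.8%) in 3 of 13 genes were retained, beside 7.27% over all genes.

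Other DRACH sites in the genes of retained sites had ratios close to those of other genes. DRACH sites at 30 to 80% with DMSO in these genes (3417 sites) averaged 53.4% ± 0.936 with DMSO and 9.97% ± 0.119 with STM3675, a ratio of 0.187. In genes with sites at 80% or more and none retained, 13405 such sites had a ratio of 0.178. In the 42 genes with 3 or more retained sites the ratio was 0.193. With STM3675, non-DRACH adenosines under 25% averaged 9.30% in genes with a retained site and 9.46% in the genes with none. The DRACH sites at 30 to 80% with DMSO had thus come near the level of incomplete conversion. Their ratios therefore cannot show how much m6A they kept. Non-DRACH adenosines under 25% within 100 nt of a retained site, 377 in all, averaged 10.0% ± 0.336 with DMSO and 9.18% ± 0.0687 with STM3675, and those near other sites 9.28% with STM3675. Neighbours at 25% or more were left out, so these means cannot show whether conversion differed around retained and lost sites. Conversion was not measured at the retained adenosines themselves.

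Groups of genes were read against the 7.27% retained over all genes with a site at 80% or more. Genes for immediate early and other short-lived regulators had 18 of 178 sites (10.1%) in 13 of 49 genes. SOCS6, an inhibitor of cytokine signalling, had 4 retained sites, the highest at 69.3% and 74.1% with STM3675, and its relative SOCS5 had 3. JUN, JUNB and JUND, subunits of the AP-1 transcription factor, had 1 each, at 48.8% ± 1.68, 37.7% ± 1.88 and 46.2% ± 1.37. The median STM3675 level over the 178 sites was 17.1%, against 16.2% over all genes, so most sites of this group were not retained.

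Chaperones and folding enzymes of the endoplasmic reticulum had 5 of 37 sites (13.5%), in ERP29, PDIA3, PPIB and UGGT1, with a median STM3675 level of 14.7% over the 37. Here retained sites were read deeply: the prolyl isomerase PPIB had 88.7% and 88.2% with DMSO and 41.2% and 42.3% with STM3675 over 2040 to 3626 reads. The disulfide isomerase PDIA3 had 91.7% and 91.2% and then 43.4% and 44.1%. PPIB and PDIA3 thus started below most retained sites. Interferon-stimulated and double-stranded RNA sensing genes had 6 of 61 (9.84%): 2 in IFNAR2 (up to 68.9% ± 0.927), 1 in IFNAR1, both chains of the interferon receptor, 2 in IFIT5 and 1 in TRIM56. Chromatin regulators had 9 of 128 (7.03%), among them KMT2D, ARID1A and ARID1B, ZNF genes 35 of 401 (8.73%) and solute carriers 22 of 273 (8.06%).

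In 6 groups of genes with housekeeping roles no site was retained. Glycolysis and pentose phosphate enzymes had 0 of 12 sites, oxidative metabolism 0 of 8, cytosolic and mitochondrial chaperones 0 of 26, cytoskeletal genes 0 of 14, amino acid and tRNA synthetase genes 0 of 14 and cytosolic ribosomal proteins 0 of 9. Mitochondrial ribosomal proteins had 1 of 44, TMEM genes 6 of 158 (3.80%), extracellular matrix and adhesion genes 2 of 58, both in COL6A2, and RNA processing genes 1 of 29, in SMG1. Cell cycle genes had 3 of 33 (9.09%, in E2F3, CENPF and MKI67), ubiquitin ligases and deubiquitinases 2 of 43, lysosomal genes 1 of 15, in GUSB, and genes of translocation and transport from the endoplasmic reticulum 1 of 29, in LMAN2. Groups of so few sites cannot be set apart from the 7.27% over all genes.

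In the 5 lines the rule did not use, retained sites had the higher mean level in each line, by a difference that the exact test over 5 lines cannot take below 0.05. With 20 reads in all 10 libraries, 449 retained and 6547 other sites could be read there, and 470 retained sites could not. Retained sites averaged 96.2% ± 0.174 in A549, 97.4% ± 0.648 in COV644, 97.1% ± 0.0177 in EFO21, 95.6% ± 0.32 in OE21 and 97.3% ± 0.17 in SKOV3 (SD, n = 2 libraries). The others averaged 87.5%, 90%, 88.7%, 86.6% and 87.6%, and the lowest library mean of retained sites stood above the highest of the others. The difference was 8.64 ± 0.854 points (SD over 5 lines), higher in 5 of 5 lines, with a two-sided exact sign-flip permutation p of 0.0625, the smallest that 5 lines allow. A level of 80% or more in all 10 libraries was held by 432 retained sites (96.2%) and 3756 others (57.4%), and no retained site was below 50% in any. By site, SEPHS2 at chr16:30444188 averaged 98.6% to 99.8% over the 5 lines, PANX1 98.2% to 100%, the highest TAF5L site 98.9% to 100% and the highest FEM1B site 96.6% to 99.2%. CHST15 at chr10:124009679 averaged 90.6% to 96.1%, and PDIA3 and PPIB, lower in CAOV3 too, averaged 86.5% to 89.3% and 80.3% to 88.1%. Among sites at 90% or more in both CAOV3 DMSO libraries the difference was 4.32 points. With the minimum raised to midway between 95% and 100% in both (213 retained and 810 other sites), a comparison chosen after seeing the data, it was 1.45 points, so it was smaller the higher the minimum.

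**Figure D5:**
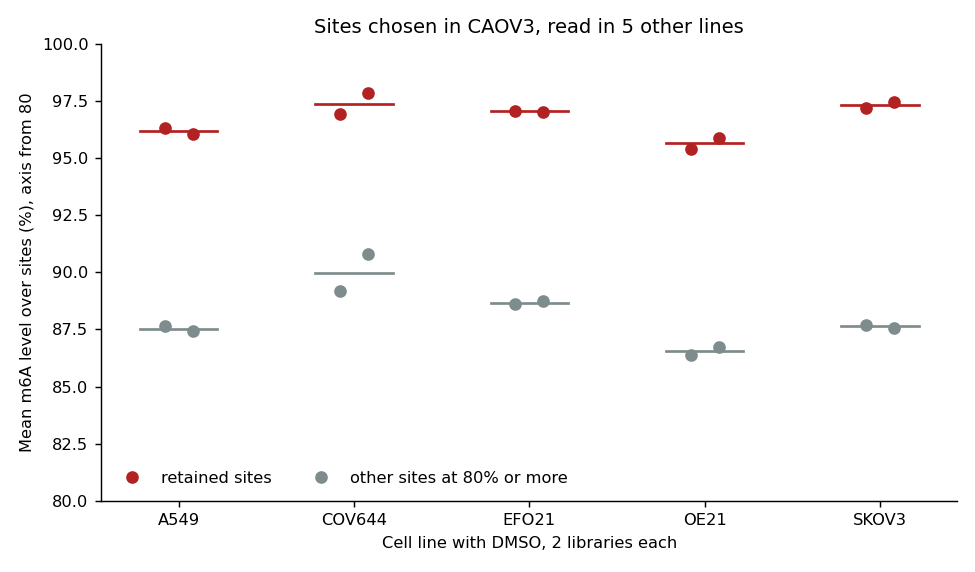
Mean m6A level (%) over 449 retained and 6547 other sites in each of 10 DMSO libraries of 5 lines, with points for libraries and lines for their mean; the vertical axis starts at 80%. Retained sites lie between 95.4% and 97.8% and the others between 86.4% and 90.8%.

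Few retained sites were called as differing among these 5 lines, and the number called depended on the model. A quasi-binomial logistic model with a moderated dispersion called 32 of 449 retained sites (7.13%) at a Benjamini-Hochberg adjusted p under 0.05, against 1583 of 6547 others (24.2%) and 32.1% of all sites tested. With 50 reads in every library it called 31 of 187 (16.6%), against 51.7% of all sites. Among sites averaging 95% or more in CAOV3 the shares were 4.47% of 380 retained and 11.7% of 2392 others. The median range over line means was 3.11 points at retained sites and 7.70 at the others. Levels near 100% leave little room to differ, and limma on empirical logits called 2 of 449 (0.445%), against 3 of 6547 others (0.0458%) and 0.0734% of all sites. Retained sites thus had the lower share of calls in the quasi-binomial fit. With limma their share was the higher one, but it rests on 2 and 3 called sites, too few to compare. The quasi-binomial fit gave all sites 1 common dispersion (1.68), so sites with more spread than most are called too readily.

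The called site with the widest range was in RMI2, a subunit of the complex that dissolves recombination intermediates (chr16:11350868), at 67.5% ± 2.37 in A549, 71.8% ± 2.02 in OE21, 96.4% ± 2.49 in COV644, 98.2% ± 0.233 in SKOV3 and 99% ± 0.297 in EFO21. A549 and OE21 stood apart from the 3 ovarian lines at this site without overlap, with an adjusted p of 8.7e-74 from the quasi-binomial F test. In CAOV3 it read 96.7% and 100% with DMSO and 49.4% and 50.0% with STM3675. FBXL5, an iron-regulated ubiquitin ligase subunit, was also lowest in A549 (65.5% ± 0.844) and OE21 (67.3% ± 1.02) and reached 88.3% ± 1.34 in SKOV3, with an adjusted p of 1.7e-11 by the same test. PCNX1 and LRRC14, the next by range, were lowest in OE21, at 75.5% ± 2.85 and 80.5% ± 4.45, and highest in COV644, at 95.9% ± 5.73 and 98.6% ± 1.96. By limma on empirical logits RMI2 had an adjusted p of 0.047, while FBXL5, LRRC14 and PCNX1 had 0.072, 0.21 and 0.26 and did not pass.

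Read coverage of the genes, summed over their listed sites, was used by the rule only as a minimum. With edgeR's quasi-likelihood test, 347 of 650 genes with a retained site (53.4%) were covered more with STM3675 and 91 (14.0%) less, against 27.0% and 25.7% of all 12836 genes tested. Genes with sites at 80% or more of which none was retained had 1763 of 4230 (41.7%) more and 788 (18.6%) less covered. The median log2 fold change was 0.26 in genes with a retained site, 0.13 in those other genes with a site at 80% or more and -0.01 over all genes tested. Genes with a retained site thus leaned to higher coverage, as did other genes with a site at 80% or more. The difference between these sets was not tested. Genes of both sets, unlike all genes tested, had to hold a site with 20 reads in each CAOV3 library. With the reads of each gene's deepest site alone, 186 genes with a retained site (28.6%) were covered more and 44 (6.77%) less, against 13.3% and 9.43% of all genes. Without STM3675 replicate 1 these were 248 (38.2%) and 50 (7.69%), against 17.2% and 12.8%. Without STM3675 replicate 2 they were 251 (38.6%) and 47 (7.23%), against 17.0% and 12.5%.

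The largest rises were in ALDH1B1, a mitochondrial aldehyde dehydrogenase, which went from 154.8 and 143.9 CPM (coverage counts scaled to the effective library size by TMM) with DMSO to 618 and 624 with STM3675, a log2 fold change of 2.06 ± 0.0727 (SE, adjusted p = 1.4e-07, edgeR). IFIT5, an interferon-induced RNA-binding protein, went from 114.6 and 106.5 to 412 and 394 (1.86 ± 0.0749), and CDC42EP3, an effector of the GTPase CDC42, from 179.8 and 199.6 to 540 and 543 (1.51 ± 0.0754). The groups did not overlap in any of the 3. DMBT1, a secreted mucin-like protein, fell from 427 and 358 to 72.0 and 84.1, a log2 fold change of -2.33 ± 0.105 (adjusted p = 3.5e-07, edgeR). SLC5A3 fell from 424 and 319 to 133.9 and 121.8 (-1.54 ± 0.12), and C1GALT1C1, a chaperone of O-glycosylation, from 167.1 and 168.0 to 70.6 and 62.8 (-1.33 ± 0.0814).

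High retention thus came with coverage in either direction. Of the 12 genes with 4 or more retained sites, SLC5A3, CHST15 and DOCK5 were covered less (-1.54, -0.56 and -0.24 on the log2 scale). TAF5L (1.34), HPS6 (1.12), AP5B1 (1.07), TNFAIP8 (0.92), FEM1B (0.78), ZNF148 (0.61) and FBXO42 (0.31) were covered more. EVC had 100.1 and 92.4 CPM with DMSO and 100.2 and 93.6 with STM3675, a log2 fold change of 0.01 ± 0.0798 (adjusted p = 0.92, edgeR), and SOCS6 had one of 0.06 ± 0.0704 (adjusted p = 0.51, edgeR). Coverage at listed sites counts a read at each site it spans, and transcript stability was not measured.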

How the data were processed

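GLORI libraries of polyadenylated RNA from 7 groups of 2 were examined. RNA was fragmented, deaminated and made into small RNA libraries, per the labels' protocols. Trimming with cutadapt and alignment with STAR to GRCh38 are named in the submitters' processing notes, while their versions and how sites were called are not stated there. Per site and library, the authors' table holds the count of A or G reads and the A fraction, printed here in percent. The fraction times the count was whole within 5.46e-12 at every value, so A counts were recovered. D columns were taken as DMSO and T columns as treated. Listed sites had at least 25% and 20 reads in some DMSO library, so what is listed favours methylated adenosines. Duplicate reads cannot be told from molecules here, and errors from counting are lower limits.

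The members and gene lists were chosen with earlier results of these data known. Gene, exon, strand and motif are those of the deposited table, and each site was counted once (3 retained sites stand under 2 genes). Distances run from the start of the listed exon. RefSeq windows (GRCh38.p14) gave sequence around sites. For the 5 other lines, sites with 20 reads in all 10 libraries were fitted with a quasi-binomial model in R 4.3.3, with dispersion moderated by limma 3.58.1 and floored at 1, over all 76271 such sites. Coverage was tested with edgeR 4.0.16 (TMM, filterByExpr, Benjamini-Hochberg over 12836 genes, threshold 0.05), with DESeq2 1.42.0 as an alternative. Both scripts were tested on simulated data. Named were the 12 highest sites with 50 reads, 1 per gene, the 10 genes with most retained sites (ties taken by fewer sites at 80% or more; AP5B1 and SOCS6, which tie, are added), up to 3 genes per list, the 3 sites on each side of the threshold, the 4 widest sites among lines, the 3 largest coverage changes each way and the 4 genes with the widest gap. Sites or genes named beyond these were chosen after their values were seen. Tables and figures used pandas 2.3.3, numpy 2.4.6 and matplotlib 3.10.9 under Python 3.11.15. 1 of the 12 highest sites is not reported here. Spike-in probes were not analysed here.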

Additional observations from a re-analysis of the deposited data

How the results depend on the processing

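The number of retained sites followed the thresholds: 1379 (10.9% of sites at the DMSO minimum) with an STM3675 minimum of 30% and 608 (4.81%) with 40%. It was 426 (6.11%) with 50 reads in every library. After levels were rescaled by the medians of listed non-DRACH adenosines, which can overstate incomplete conversion, it was 570 (4.93%). With a DMSO minimum of 75% or 85% the share was 6.26% or 8.88%. Leaving out 1 of the 4 libraries gave 988 to 1369 sites (6.33% to 10.8%). The number could not fall there, because the rule then set no condition on the library left out. The share of same-gene sites retained, seen from a retained site and from one not retained, was 22.3% and 13.6% with the 30% minimum, 12.2% and 6.21% with 40%, 16.8% and 8.24% with 50 reads, and 15.8% and 9.97% for sites 200 nt or more apart. Without 1 library it ran from 14.8% to 20.9% and from 8.50% to 13.2%. The difference in the other lines stayed between 8.57 and 8.71 points without 1 library and was 1.45 points with the DMSO minimum raised to midway between 95% and 100% in both CAOV3 libraries (213 against 810), an alternative chosen after seeing the data. Retained sites called among the 5 lines numbered 2 with limma (0.445%, against 0.0734% of all sites) and 19 to 49 without 1 library, lowest without OE21 replicate 1 (4.23%, against 21.2%) and highest without SKOV3 replicate 1 (10.9%, against 41.4%). Genes covered more numbered 186, and those covered less 44, by the deepest site alone (all genes: 13.3% and 9.43%), and 248 to 388 and 47 to 133 without 1 library (all genes: 17.0% to 30.8% and 12.5% to 29.6%). Apart from the rise in retained sites without 1 library, the cause of these changes was not tested. Replicate numbers did not pair the libraries (correlations of -0.0271 to 0.0173 among the lines and -0.023 for coverage). A replicate block gave 34 called retained sites (7.57%, against 32.4% of all sites) and a level difference of 8.64 points. With it 351 genes (54%) were covered more and 90 (13.8%) less, against 27.4% and 26.1% of all genes. The 95% Wilson interval of the 7.27% was 6.83% to 7.74%, counting error only.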

Other observations

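Retained sites were unevenly spread over chromosomes. On chromosome 21, 29 of 144 sites at 80% or more were retained (20.1%), against 5.67% to 10.3% on the other autosomes and X. The 29 lay in 14 of 51 genes and in sites with no gene listed: 5 in SLC5A3, 3 in DYRK1A, a protein kinase, 3 in SON, a splicing cofactor, 2 each in IFNAR2, COL6A2 and NRIP1, and 1 each in 8 genes. Without SLC5A3 the share was 18.0% (24 of 133). The chromosome was picked after its value was seen.

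Retained sites without a listed gene included some of the deepest. A site inside PEG10, an imprinted gene derived from a retrotransposon, read 99.3% and 99% with DMSO and 46.5% and 48.8% with STM3675, over 4526 to 6156 reads. A site inside BCAR3 read 99% and 100%, then 70.5% and 66.3%, over 323 to 1093 reads. Sites inside SNHG14, a long noncoding transcript, read 91.5% and 87.5% at chr15:24991134 and 59.1% and 45.1% at chr15:24990034 with STM3675. The intervals are those of RefSeq, and whether the reads come from these genes was not tested.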
